A study of Mus musculus with 10 samples.

Results

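Levels of 7 early response genes were compared in murine keratinocytes and splenic CD8+ T cells before and after their co-culture. These are the genes of 3 EGR zinc finger factors (Egr1, Egr2, and Egr3), the gene of their corepressor NAB2 (Nab2), and the 3 genes of the NR4A orphan nuclear receptors (Nr4a1, Nr4a2, and Nr4a3). They were chosen as families of early response genes and found by gene name, with earlier results of these data known. Each of these names was found once in the gene table of every library, so that all 7 of 7 members were measured among 25814 genes.

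EGR and NR4A genes belong to the immediate early genes, whose transcription starts within minutes after a signal and without new protein synthesis. In T cells the antigen receptor drives Egr1 mainly through the Ras/ERK pathway and serum response factor. It drives Nr4a genes mainly through calcium signals and the factors MEF2 and NFAT. EGR2, EGR3 and the NR4A receptors are known to restrain activated T cells, and NAB2 binds EGR proteins and is itself an EGR target. In cultured keratinocytes, EGR1 is known as a factor that responds to growth factors, stress and wounding.

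Poly(A) RNA, selected from total RNA, was sequenced in 10 libraries in 5 groups of 2. Keratinocytes were prepared from tails of adult mice and kept in serum-free keratinocyte medium with 0.06 mM Ca++, either alone or together with pre-activated CD8+ T cells, which were washed off before the keratinocytes were collected. CD8+ T cells were enriched from spleen with microbeads and activated by CD3 (5 µg) and CD28 (2 µg) Abs for 1 d. One group was collected at that point (activated T cells), another was then kept for 1 d in keratinocyte medium, and the last for 1 d together with keratinocytes. Both later groups of T cells are therefore 1 d older than the activated T cells. Time, the end of activation by the Abs and change of medium cannot be told apart. For the co-culture the sample labels name 1 d but the design text names 1 h. The study describes a mix of keratinocyte and X-vivo media for all co-cultures and for the T cells kept without keratinocytes. No such mix is stated for keratinocytes alone. In co-cultured keratinocytes, the presence of T cells and the mixed medium therefore cannot be told apart. C57/B6 mice were used by the study, and no allele or transgene is named for any of these samples. Replicate numbers from the labels are used for both groups of keratinocytes and for activated T cells, while the libraries of the other 2 groups carry no number and are called a and b in the order of their deposition. No source says that the 2 libraries of a group come from separate mice, and p-values therefore measure only the spread between these libraries.

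The libraries held 12864931 to 18019609 exon reads (median 14830028), and 3 reads on a member correspond to 0.0273 to 0.0743 RPKM (reads normalised to exon length and to the mapped reads of the library), depending on gene and library. Counts within a group differed far beyond sampling noise, so that each library was used as a separate replicate. The labels of the cells were checked with marker genes. The summed level of 9 keratinocyte markers was 20210 to 25790 RPKM in the 4 keratinocyte libraries, 0.883 to 2.60 RPKM in the activated T cells and the T cells in keratinocyte medium, and 208 (a) and 99.9 (b) RPKM in the co-cultured T cells. The sum of Cd8a and Cd8b1 was 251 to 1096 RPKM in T cells and 0.224 to 3.16 RPKM in keratinocytes, but Cd4 was also read at 16.8 to 102 RPKM in T cells and at 11.4 to 84.4 RPKM in keratinocytes. In keratinocytes Cd4 was thus above the sum of Cd8a and Cd8b1 in every library, with 11.4 and 15.0 RPKM in replicate 1 and 43.5 and 84.4 RPKM in replicate 2 (alone and co-cultured, respectively). The sum of 8 general T-cell markers, among them Cd3e and Lck, was 977 to 1916 RPKM in T cells, and in keratinocytes it differed between the replicates, with 116 and 147 RPKM in replicate 1 and 455 and 808 RPKM in replicate 2 (alone and co-cultured, respectively). In such bulk samples, fewer cells of a type and less RNA per cell cannot be told apart.

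Promoter sequences of 5 of the 7 genes were read from RefSeq (build GRCm38.p6, 250 bases before to 50 bases after each start). Short stretches are shown to give the letters of 3 kinds of motif, the CArG box, the CREB/ATF motif and the EGR site, in these genes. Egr2 has 5 such starts. The CArG box, the serum response factor motif, was found in 4 of these 5 windows, and in 1.63% of all 32851 promoters of the same length. Of these 4 windows, 3 overlap and hold the same match. The box was not found in the windows of Nab2 and of the Nr4a genes. The 2 distinct matches of Egr2, with the box in capitals and 10 bases on either side, read 5′ to 3′ on the plus strand:
Egr2, chr10:67537787-67537816: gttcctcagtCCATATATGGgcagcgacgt
Egr2, chr10:67537484-67537513: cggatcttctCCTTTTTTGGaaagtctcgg

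The letters TGACG, the core of the cAMP response element on which CREB/ATF factors act, were found 4 times in the window of each of the 3 Nr4a genes, in 0.231% of all promoters 4 times or more, and in 20.8% at least once. Nab2 had no match. In Egr2, 3 of the 5 windows, which overlap, held the same 2 matches, 1 of them close to the CArG box. All motifs were searched on both strands. The palindrome TGACGTCA (1.79% of promoters), which contains TGACG on both strands, the letters AAAGGTCA (1.51%), to which NR4A receptors bind, the EGR site GCGTGGGCG (0.612%) and the MEF2 box (0.557%) were found in none of these windows of the members. Examples from the Nr4a genes, in the direction of transcription and with TGACG or its reverse complement in capitals, are:
Nr4a1, chr15:101266796-101266820, plus strand: cctctccatgCGTCAcggagcgctt
Nr4a1, chr15:101266623-101266647, plus strand: accccgcgtgCGTCAcgcgcgcaga
Nr4a2, chr2:57124100-57124124, minus strand: acggggccgcTGACGcgcttggccg
Nr4a3, chr4:48045090-48045114, plus strand: gtcgtcacatTGACGtctcgcattc
The other EGR site searched, GCGGGGGCG (2.91% of promoters), was found once, on the reverse strand upstream of Nr4a1, 52 to 60 bases before its start:
Nr4a1, chr15:101266776-101266804, plus strand: gcgtcagtggCGCCCCCGCccctctccat
A match is a description of these letters, and no binding was measured here. The other 2 members, Egr1 and Egr3, were not analysed here in this way.

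Egr1 (ENSMUSG00000038418, chromosome 18, 34859823 to 34864984, plus strand, GRCm38) codes for the founding member of the EGR factors. Its RPKM were 67.0 and 77.2 in replicates 1 and 2 of keratinocytes alone, 41.0 and 7.75 in co-cultured keratinocytes, 11.6 and 7.43 in activated T cells, 3.52 (a) and 3.43 (b) in T cells in keratinocyte medium, and 2.94 (a) and 2.84 (b) in co-cultured T cells. Keratinocytes alone were above all other libraries, and the 4 later T-cell libraries were the lowest. Of the co-cultured keratinocytes, replicate 1 was between keratinocytes alone and activated T cells, and replicate 2 was within the range of activated T cells. The mean of keratinocytes alone was 25.0 fold that of co-cultured T cells.

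Egr2 (ENSMUSG00000037868, chromosome 10, 67535475 to 67542188, plus strand) was highest in activated T cells with 8.46 and 6.54 RPKM. It had 3.75 and 3.61 RPKM in keratinocytes alone and 1.96 and 1.27 RPKM in co-cultured keratinocytes. In T cells it had 1.35 (a) and 0.955 (b) RPKM in keratinocyte medium and 1.16 (a) and 0.936 (b) RPKM after co-culture. The ranges of the last 3 of these groups overlapped from one to the next, whereas activated T cells, keratinocytes alone and co-cultured keratinocytes were set apart from each other.

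Egr3 (ENSMUSG00000033730, chromosome 14, 70077203 to 70082614, plus strand), a close relative of Egr2, had 6.80 and 16.9 RPKM in keratinocytes alone and 10.5 and 6.83 RPKM in activated T cells, and the ranges of these 2 groups overlapped. Co-cultured keratinocytes had 3.41 and 3.44 RPKM. T cells in keratinocyte medium had 1.33 (a) and 1.62 (b) RPKM and co-cultured T cells 1.06 (a) and 1.33 (b) RPKM, the lowest levels, which did not differ beyond their spread.

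Nab2 (ENSMUSG00000025402, chromosome 10, 127660918 to 127668568, minus strand) had the flattest profile of the 7 genes, with a 3.31 fold difference between the highest and the lowest group mean. Its RPKM were 16.7 and 10.4 in activated T cells, 8.65 and 7.75 in keratinocytes alone, 6.44 and 6.64 in co-cultured keratinocytes, 7.30 (a) and 6.13 (b) in co-cultured T cells, and 3.48 (a) and 4.71 (b) in T cells in keratinocyte medium. Co-cultured T cells and co-cultured keratinocytes overlapped. On the opposite strand Nemp1 overlaps Nab2 by 1668 bases, the antisense gene Gm16229 by 1646 bases and Stat6 by 40 bases, and no source used here states that reads were counted by strand, so that part of the Nab2 reads may belong to these genes.

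Nr4a1 (ENSMUSG00000023034, chromosome 15, 101254269 to 101274795, plus strand), also known as Nur77, had 20.8 and 26.7 RPKM in activated T cells. All 8 other libraries were between 2.42 and 6.18 RPKM, with 6.18 and 4.67 in keratinocytes alone, 2.42 and 3.89 in co-cultured keratinocytes, 3.95 (a) and 4.20 (b) in T cells in keratinocyte medium, and 2.97 (a) and 3.81 (b) in co-cultured T cells. Activated T cells stood far above the rest, and the 2 lowest groups overlapped.

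Nr4a2 (ENSMUSG00000026826, chromosome 2, 57106830 to 57124003, minus strand), also known as Nurr1, was the NR4A gene with the lowest level in activated T cells, 5.42 and 6.58 RPKM. Keratinocytes alone had 0.549 and 0.486 RPKM, co-cultured keratinocytes 0.141 and 1.07, T cells in keratinocyte medium 0.778 (a) and 0.619 (b), and co-cultured T cells 1.26 (a) and 0.453 (b). Neighbouring groups below the activated T cells overlapped throughout, and these levels rested on 8 to 72 exon reads.

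Nr4a3 (ENSMUSG00000028341, chromosome 4, 48045153 to 48086447, plus strand), also known as Nor1, showed the widest range of the 7 genes between group means. It had 38.5 and 23.5 RPKM in activated T cells, from 3745 and 1959 exon reads. T cells in keratinocyte medium had 1.87 (a) and 0.630 (b) RPKM and co-cultured T cells 1.45 (a) and 1.18 (b), and these groups overlapped. Keratinocytes alone had 0.109 and 0.426 RPKM and co-cultured keratinocytes 0.250 and 0.848, from 12 to 81 reads. The mean of activated T cells was 116 fold that of keratinocytes alone.

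**Figure D1:**
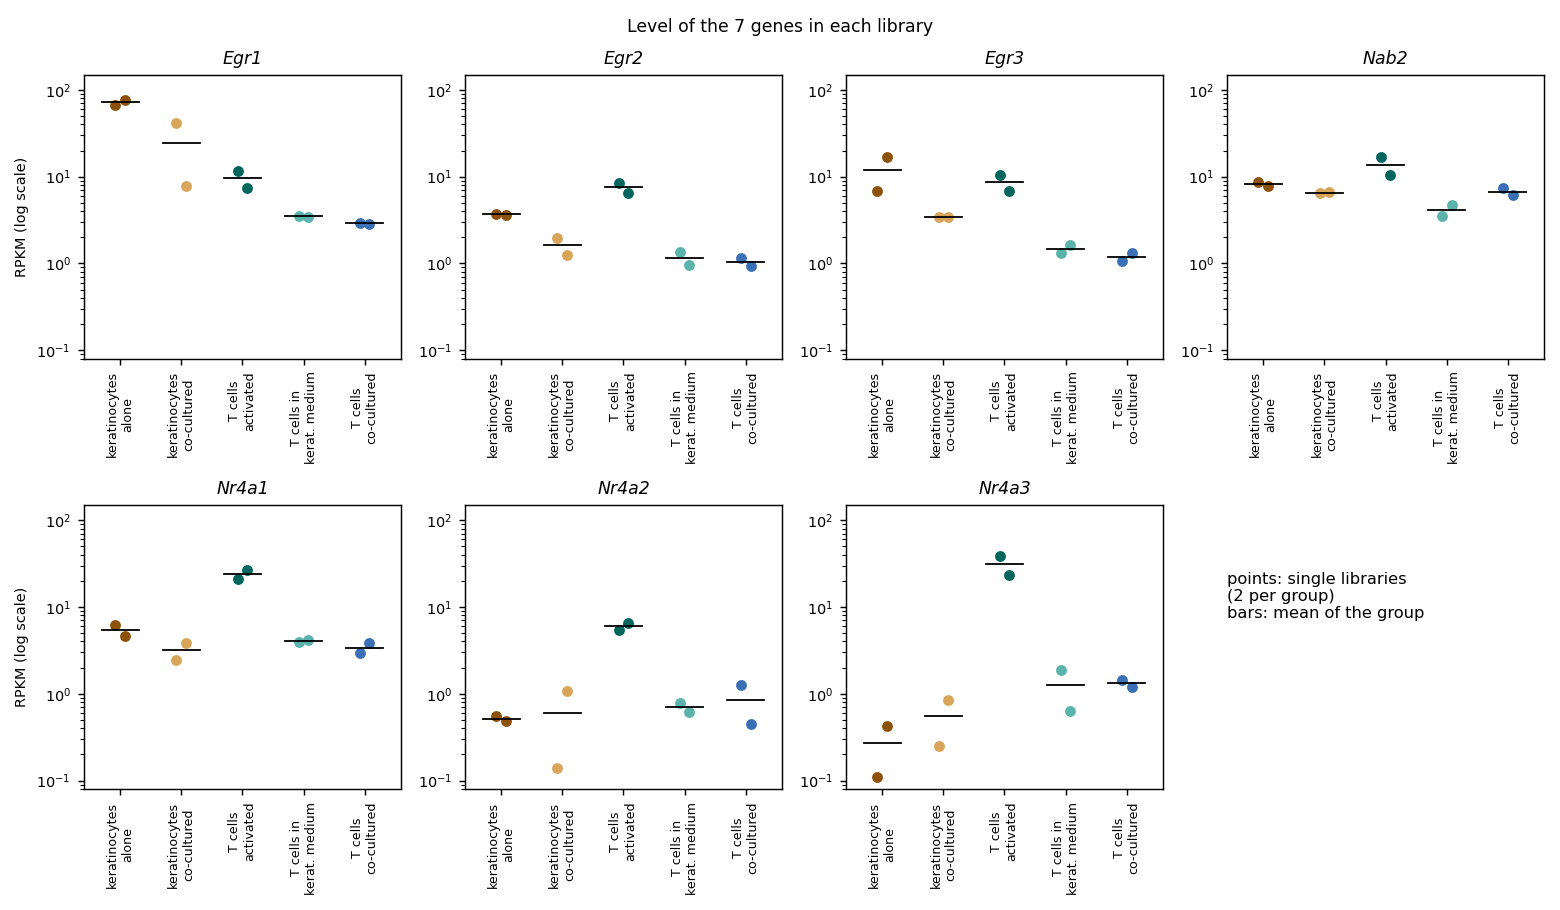
RPKM (log axis) of each gene in each library, with 1 point per library, 2 libraries per group and a bar at the group mean. Activated T cells have the highest level of Egr2, Nab2 and the 3 Nr4a genes, and keratinocytes alone that of Egr1, with 67.0 and 77.2 RPKM.

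Keratinocytes and activated T cells held RNA of the 2 families in different proportions. The sum of Egr1, Egr2 and Egr3 was 77.6 and 97.7 RPKM in keratinocytes alone, of which Egr1 made up 86.4% and 79.0%. The sum of the Nr4a genes was 6.84 and 5.58 RPKM there, that is 0.0882 and 0.0571 of the Egr sum, and Nr4a1 made up 90.4% and 83.7% of it. In activated T cells the Egr sum was 30.6 and 20.8 RPKM, shared among Egr1 (38.0% and 35.7%), Egr2 (27.6% and 31.4%) and Egr3 (34.3% and 32.9%), and the Nr4a sum was 64.7 and 56.7 RPKM, 2.11 and 2.73 times the Egr sum. Within the Nr4a sum, Nr4a3 made up 59.4% and 41.4% and Nr4a1 32.2% and 47.0%. These are shares of levels per exon length, described without a test.

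In the 4 later T-cell libraries both sums were low and close to each other, with 5.10 to 6.20 RPKM for the Egr genes, 5.45 to 6.59 RPKM for the Nr4a genes, and ratios of 0.908 to 1.10. Egr1 then made up 55.6% to 57.1% of the Egr sum, and Nr4a1 was at 52.2% to 77.1% of the Nr4a sum. The ratio of Nab2 to the Egr sum was 0.545 and 0.500 in activated T cells, 0.561 (a) and 0.784 (b) in keratinocyte medium, and 1.41 (a) and 1.20 (b) after co-culture, so that it was highest in the co-cultured T cells. In co-cultured keratinocytes the 2 replicates went apart, with an Egr sum of 46.4 and 12.4 RPKM and ratios of Nr4a to Egr of 0.0606 and 0.466.

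**Figure D2:**
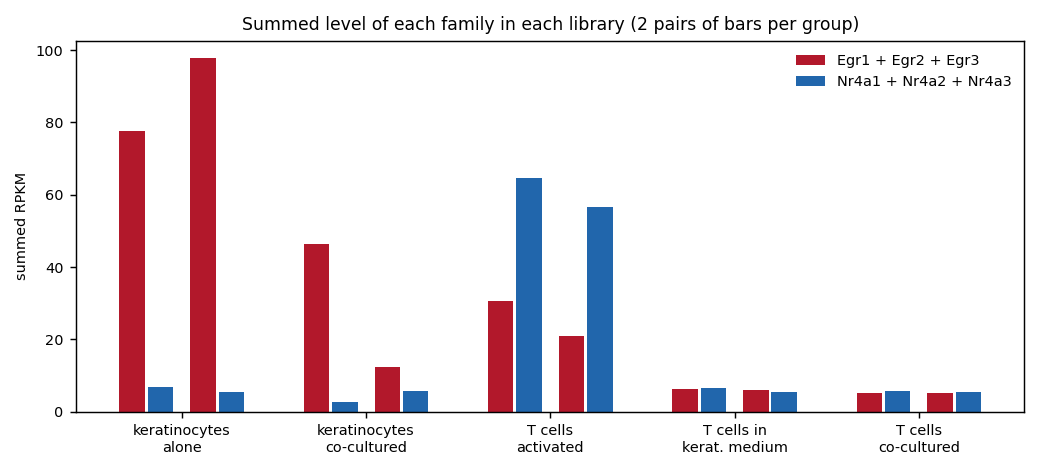
Summed RPKM of Egr1, Egr2 and Egr3 and of Nr4a1, Nr4a2 and Nr4a3, with 1 pair of bars per library and 2 libraries per group. The Egr sum is the larger one in the 4 keratinocyte libraries and the Nr4a sum in the 2 libraries of activated T cells, whereas both are between 5.10 and 6.59 RPKM in the later T cells.

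The direct comparison of activated T cells with keratinocytes alone asked how the 2 starting points of the co-culture differ. Nr4a3, Nr4a1 and Nr4a2 were higher and Egr1 was lower in activated T cells, while Egr2, Egr3 and Nab2 did not pass the test. The log2 fold change was 6.68 for Nr4a3 (SE 0.93, adjusted p = 0.00115 by edgeR's quasi-likelihood test with Benjamini-Hochberg adjustment over 13394 genes), 3.39 for Nr4a2 (SE 0.92, adjusted p = 0.0202), 1.99 for Nr4a1 (SE 0.44, adjusted p = 0.0084) and -3.08 for Egr1 (SE 0.63, adjusted p = 0.00603). In total 4 of 7 members passed, 3 of them higher and 1 lower, beside 35.5% of all genes in either direction (1740 higher and 3014 lower) in this comparison of different cell types. For Egr2 the log2 fold change was 0.87 (95% interval -0.037 to 1.77), for Nab2 0.56 (-0.26 to 1.38) and for Egr3 -0.62 (-1.72 to 0.48). Without replicate 2 of keratinocytes alone, 2 members passed (Egr1 and Nr4a3), and without replicate 2 of activated T cells also 2 (Nr4a1 and Nr4a3). Without replicate 1 of either group Nr4a2 was lost and the other 3 passed. Nr4a3 was called in every one of these fits. The T-cell markers given above were present in the keratinocyte libraries. Their part in the Nr4a levels there was not tested. In keratinocytes alone, Nr4a3 (0.109 and 0.426 RPKM) and the T-cell markers were higher in replicate 2. Nr4a1 (6.18 and 4.67 RPKM) and Nr4a2 (0.549 and 0.486 RPKM) were lower in replicate 2. In co-cultured keratinocytes, Nr4a1, Nr4a2, Nr4a3 and the T-cell markers were all higher in replicate 2.

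After activation, 1 d in keratinocyte medium without keratinocytes was accompanied by lower levels of all 3 Nr4a genes and of Egr2 and Egr3. The largest change was that of Nr4a3, with a log2 fold change of -4.51 (SE 0.54, 22.8 fold, adjusted p = 0.0115 by edgeR's quasi-likelihood test). It was -2.96 for Nr4a2 (SE 0.58, adjusted p = 0.0272), -2.56 for Egr2 (SE 0.45, adjusted p = 0.0211), -2.40 for Nr4a1 (SE 0.40, adjusted p = 0.0200) and -2.39 for Egr3 (SE 0.45, adjusted p = 0.0255). Egr1 and Nab2 had log2 fold changes of -1.30 (95% interval -2.17 to -0.43, adjusted p = 0.0802) and -1.56 (-2.50 to -0.61, adjusted p = 0.0616) and were not called. Thus 5 of 7 members were lower and 0 higher, beside 4.22% of the 11863 genes tested that were lower and 2.32% that were higher. The median log2 fold change was -2.40 for the 7 members and -0.015 for all genes tested. All 7 genes had both libraries below both of the activated T cells in RPKM, as had 32.5% of all genes tested.

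The number of calls depended on single libraries. Without replicate 1 of activated T cells only Nr4a3 was called, as was the case without library a or without library b of the T cells in keratinocyte medium. Without replicate 2 of activated T cells, 3 members were called (Egr2, Egr3 and Nr4a3). All 7 log2 fold changes stayed negative in each of these fits, and the adjusted p of Nr4a3 was 0.000809 to 0.048 (edgeR) when 1 library was left out. With DESeq2 all 7 members passed.

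In the T cells co-cultured with keratinocytes, the 3 Nr4a genes and Egr1, Egr2 and Egr3 were lower than in activated T cells. The log2 fold change was -4.35 for Nr4a3 (SE 0.54, 20.5 fold, adjusted p = 0.00638 by edgeR's quasi-likelihood test), -2.61 for Nr4a1 (SE 0.41, adjusted p = 0.0102) and -2.65 for Nr4a2 (SE 0.57, adjusted p = 0.0264). It was -2.64 for Egr2 (SE 0.45, adjusted p = 0.0134), -2.65 for Egr3 (SE 0.45, adjusted p = 0.0138) and -1.52 for Egr1 (SE 0.38, adjusted p = 0.0434). Nab2 had a log2 fold change of -0.81 (95% interval -1.74 to 0.11, adjusted p = 0.225) and was not called. In total 6 of 7 members were lower, beside 5.72% of all 11863 genes. The median log2 fold change of the 7 members was -2.64, and that of all genes -0.012. All 7 genes had both co-cultured libraries below both of the activated T cells in RPKM, as had 33.9% of all genes tested.

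Without replicate 1 of activated T cells, only Nr4a1 and Nr4a3 were called in this comparison, and without co-cultured library b, 3 members were called (Egr3, Nr4a1 and Nr4a3). With any other library left out, 4 or 5 members were called. Egr1 was called in none of these 6 fits, with an adjusted p of 0.0506 to 0.222 (edgeR). In 1 fit of all 10 libraries, 4 members were called, as in the comparison for keratinocyte medium. Both comparisons use the same 2 libraries of activated T cells, so that their values are not independent of each other. Marker levels differed between activated and later T cells, with a sum of general T-cell markers of 977 and 1499 RPKM against 1541 to 1916 RPKM. The sum of Cd8a and Cd8b1 was 454 and 251 RPKM in activated T cells and 536 to 1096 RPKM in the later ones, and the sum of 5 B-cell markers was 29.9 and 31.8 RPKM against 16.7 to 92.5 RPKM. Cd4 was at 16.8 and 102 RPKM in replicates 1 and 2 of activated T cells and at 62.0 to 75.9 RPKM in the later ones. The sum of 6 markers of myeloid cells was 18.5 and 78.0 RPKM against 44.5 to 61.4 RPKM. Their part in the changes of the 7 genes was not tested.

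Whether keratinocytes themselves changed the 7 genes in T cells was tested by comparing co-cultured T cells with T cells in keratinocyte medium. The log2 fold changes were 0.74 for Nab2 (95% interval -0.18 to 1.67), 0.31 for Nr4a2 (-0.96 to 1.58), 0.15 for Nr4a3 (-0.96 to 1.27), -0.087 for Egr2 (-1.09 to 0.91), -0.21 for Nr4a1 (-1.10 to 0.68), -0.22 for Egr1 (-1.08 to 0.65) and -0.26 for Egr3 (-1.26 to 0.75). With edgeR 0 of 7 members were called, beside 0.261% of all genes tested, and 0 had an unadjusted p under 0.05, beside 3.45% of all genes. DESeq2 and limma called 0 members as well. These intervals leave room for changes of about 1 on the log2 scale in either direction for most of the genes. Nab2 was the 1 member with both co-cultured libraries higher (14.2% of all genes tested), and Egr1 and Nr4a1 had both libraries lower (13.1%). The keratinocyte markers reached 208 (a) and 99.9 (b) RPKM in the co-cultured T cells, and their part in these values was not tested.

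**Figure D3:**
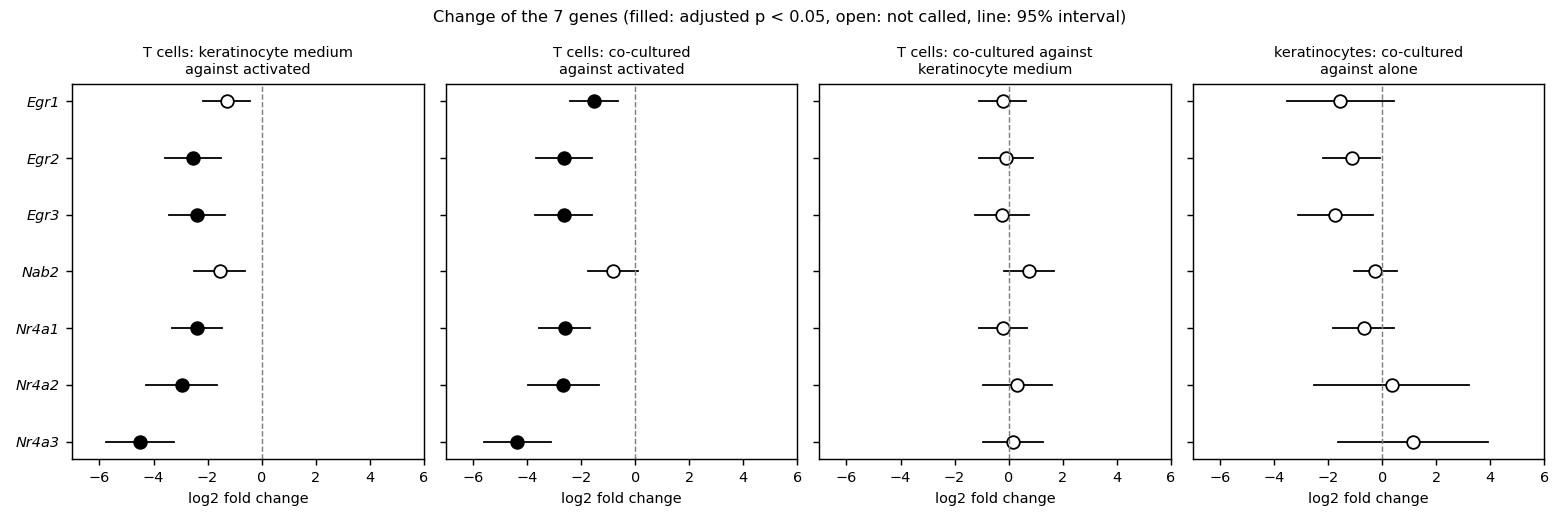
Log2 fold change of each gene with its 95% interval from edgeR in 4 comparisons. Filled points passed an adjusted p of 0.05. The 2 comparisons with activated T cells, which share these libraries, show 5 and 6 filled points on the negative side, and the other 2 show none.

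In keratinocytes, the comparison after and before co-culture asked whether the 7 genes differed with T cells, together with the mixed medium of the co-culture. All 3 Egr genes had both co-cultured libraries below both libraries of keratinocytes alone, as had Nr4a1 and Nab2 (5 of 7 members, 24.3% of all genes tested), but none passed the test. The log2 fold changes were -1.73 for Egr3 (95% interval -3.11 to -0.34, unadjusted p = 0.0239 and adjusted p = 0.658 by edgeR's quasi-likelihood test), -1.54 for Egr1 (-3.52 to 0.43), -1.13 for Egr2 (-2.20 to -0.064, unadjusted p = 0.0416, adjusted p = 0.658), -0.69 for Nr4a1 (-1.83 to 0.45) and -0.25 for Nab2 (-1.04 to 0.54). Nr4a2 with 0.35 (-2.52 to 3.22) and Nr4a3 with 1.13 (-1.64 to 3.90) had wide intervals at their low counts. Of the 12515 genes tested 0 (0.0%) were called by edgeR and 901 (7.2%) had an unadjusted p under 0.05, as had 2 of the 7 members. DESeq2 and limma called 0 of the members.

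The spread of Egr1 between the 2 co-cultured libraries decided its value. Within replicate 1 it was 1.64 fold lower after co-culture (67.0 and 41.0 RPKM), and within replicate 2 it was 9.97 fold lower (77.2 and 7.75 RPKM). Without replicate 1 of the co-cultured keratinocytes the log2 fold change of Egr1 was -3.09 (adjusted p = 0.00916 by edgeR's quasi-likelihood test), the 1 call of a member in this comparison, in a fit that called 1164 genes against 0 with all libraries. Without replicate 2 it was -0.83 (adjusted p = 0.866). Egr3 was 1.99 fold and 4.90 fold lower within replicates 1 and 2, and Egr2 1.92 fold and 2.85 fold. Replicate 2 of the co-cultured keratinocytes was also the library with the highest sum of T-cell markers among keratinocytes (808 RPKM) and of the 9 keratinocyte markers it had the lowest levels of 4, namely Col17a1 (16.5 RPKM, 89.7 to 171 in the other 3), Itgb4 (12.7 RPKM, 78.0 to 88.1), Dsg3 (65.8 RPKM, 166 to 195) and Trp63 (7.46 RPKM, 10.6 to 14.1). Krt14 was highest in this library (11840 RPKM, 7240 to 8719 in the other 3), and Krt5, Krt6a, Krt15 and Krt17 were within the range of the other 3. The part of these differences in the Egr1 value was not tested.

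The difference of the effect of co-culture between keratinocytes and T cells (against T cells in keratinocyte medium) was tested in a fit of all 10 libraries. Of the 7 members 0 were called by edgeR, beside 0.59% of 13394 genes, and 0 had an unadjusted p under 0.05, beside 6.85% of all genes. DESeq2 and limma called 0 members. The lowest value was that of Egr3, with a difference of -1.51 on the log2 scale (95% interval -3.10 to 0.081), followed by Egr1 with -1.38 (-3.26 to 0.49), Egr2 with -1.10 (-2.39 to 0.20) and Nab2 with -1.03 (-2.19 to 0.13).

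Other genes of the same signals were followed with lists. Of 27 other early response genes, 26 were tested in T cells, and 5 fell and 0 rose in keratinocyte medium against activated T cells (19.2%, beside 6.54% of all genes in either direction), with a median log2 fold change of -0.64. Atf3, a stress-induced CREB/ATF factor, was at 20.1 and 10.4 RPKM in activated T cells and at 0.391 (a) and 0.457 (b) RPKM in keratinocyte medium, and fell by 4.99 on the log2 scale (adjusted p = 0.0115, edgeR). Myc, the growth-promoting factor, fell by 2.50 (adjusted p = 0.0313, edgeR) from a mean of 107 to 17.2 RPKM. Fosl2 (-2.38) and Junb (-1.44), both subunits of AP-1, and Maff (-3.23), a small Maf factor, were lower as well. After co-culture 2 of 26 fell, namely Atf3 (-3.21) and Myc (-2.87), beside 10.3% of all genes in either direction. Atf3 had 1.13 (a) and 1.67 (b) RPKM there, and thus both libraries above those of T cells in keratinocyte medium, as had 14.2% of all genes tested. Its log2 fold change between these groups was 1.77 and was not called. Maff had 1.67 and 2.52 RPKM in activated T cells and 0.150 (a) and 0.246 (b) RPKM in keratinocyte medium. After co-culture Maff had 2.23 (a) and 4.20 (b) RPKM. The log2 fold change of co-cultured T cells for Maff was 0.83 against activated T cells and 4.06 against keratinocyte medium, and neither was called. The counts of called genes on this list rested on single libraries. In keratinocyte medium, 0 of the list were called without library a or without library b, 1 without replicate 1 of activated T cells, and 3 (2 lower and 1 higher) without replicate 2. After co-culture, 0 were called without replicate 1 of activated T cells, and 3 (2 lower and 1 higher) without replicate 2, without co-cultured library a or without library a of the T cells in keratinocyte medium.

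The lists of the 2 upstream pathways are given beside the same shares of all genes, 6.54% in keratinocyte medium and 10.3% after co-culture. Of 16 genes of the ERK and SRF pathway 0 were called in keratinocyte medium and 1, the kinase gene Mapk3, was higher after co-culture (log2 fold change 1.35, adjusted p = 0.0413, edgeR), but in none of the 6 fits with 1 library left out. Of 14 genes of the calcium and MEF2 pathway 0 were called in both comparisons with activated T cells, with median log2 fold changes of 0.31 and 0.045. Among the feedback genes of MAP kinases 2 of 10 tested were lower in both comparisons, Spry1, which dampens Ras signals (-2.52 and -2.11), and Dusp5, a nuclear phosphatase of ERK (-1.55 and -1.45). In either comparison 0 of these 10 genes were called when any of its 4 libraries was left out, and after co-culture 1 when a library of the T cells in keratinocyte medium was left out. The mean of Dusp5 was 36.1 RPKM in activated T cells, 11.1 RPKM in keratinocyte medium and 11.6 RPKM after co-culture.

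Of 14 T-cell genes that are known to be linked to EGR factors, 3 fell and 1 rose in keratinocyte medium, beside 4.22% and 2.32% of all genes, and 2 fell and 1 rose after co-culture, beside 10.3% of all genes in either direction. Without library b in keratinocyte medium 0 of them were called, without library a or replicate 1 of activated T cells 1, and without replicate 2 of activated T cells 2. After co-culture 1 was called without replicate 1 of activated T cells and 2 without replicate 2 or without co-cultured library a. Tnfrsf9, which codes for the co-stimulatory receptor 4-1BB, had 161 and 156 RPKM in activated T cells, 12.6 (a) and 13.7 (b) RPKM in keratinocyte medium and a mean of 9.38 RPKM after co-culture, with log2 fold changes of -3.44 and -3.87 (adjusted p = 0.00991 and 0.00323, edgeR). Sema7a, a membrane-anchored semaphorin, had log2 fold changes of -2.40 and -2.50, and Ndrg1 of -2.47 in keratinocyte medium. Ndrg1 had 12.8 and 28.3 RPKM in activated T cells and 2.74 (a) and 3.96 (b) RPKM in keratinocyte medium. After co-culture it had 11.8 (a) and 9.09 (b) RPKM and was not called against activated T cells (-0.81). Dgka, a diacylglycerol kinase that limits Ras activation, went the other way, with 24.3 and 24.5 RPKM in activated T cells, 90.8 (a) and 50.6 (b) RPKM in keratinocyte medium, and 101 (a) and 51.1 (b) RPKM after co-culture (1.66 and 1.81). Of 10 T-cell genes linked to NR4A receptors, 1 fell in each comparison (in keratinocyte medium 0 without library a or b), Irf4, a factor that scales with the strength of the receptor signal, from a mean of 56.8 RPKM to 5.88 and 5.79 RPKM (-3.11 and -3.08). The genes of the receptors Pdcd1 and Lag3 and of the factor Tox on these lists were not called in either comparison.

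Of the partners and relatives (Egr4, Nab1, Wt1 and the retinoid X receptor genes), 3 were tested in T cells and 0 were called. Rxra, whose product can pair with NR4A receptors, had 29.9 and 31.0 RPKM in keratinocytes alone but 3.24 and 2.56 RPKM in activated T cells (log2 fold change -3.55, adjusted p = 0.000411, edgeR), whereas Rxrb had 14.6 to 28.3 RPKM in the 10 libraries. In keratinocytes after co-culture 0 genes of any of these lists were called by edgeR, where 0 of all 12515 genes tested were called. In T cells with against without keratinocytes 0 list genes were called as well, beside 0.261% of all genes tested. With so few calls over all genes, these counts say little about the lists.

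**Figure D4:**
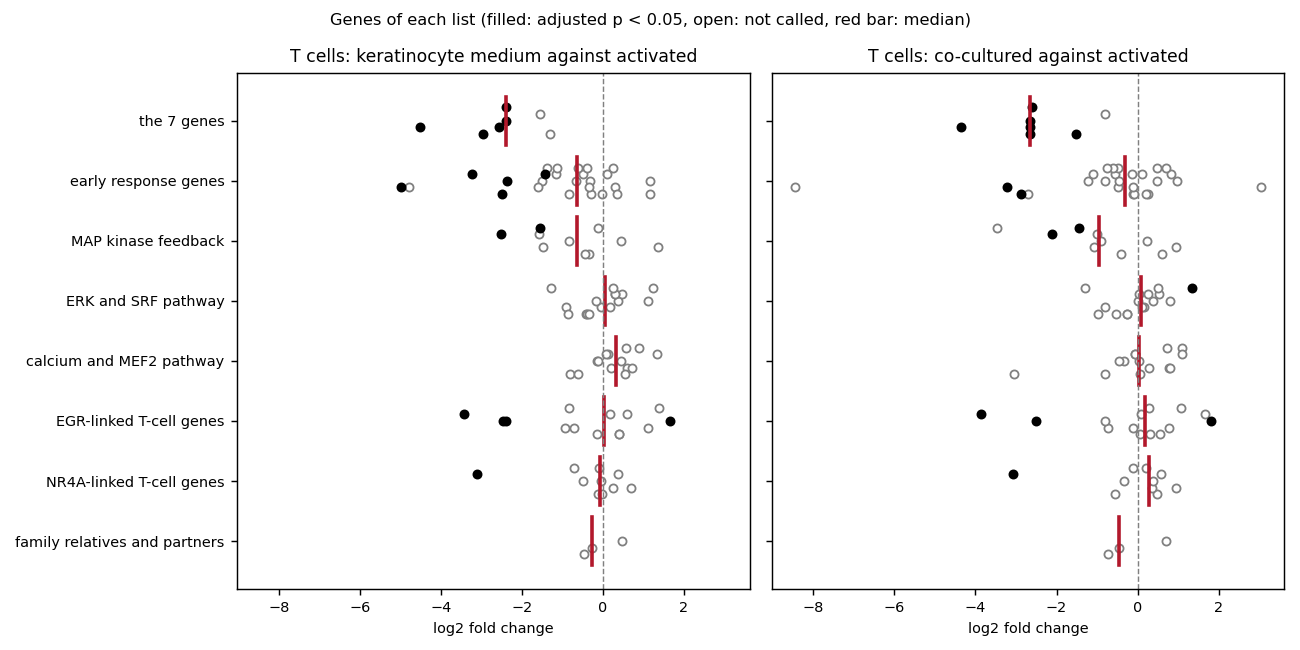
Log2 fold change of the 7 genes and of the genes of 7 lists in T cells in keratinocyte medium (left) and co-cultured T cells (right), each against the same 2 libraries of activated T cells. Filled points passed an adjusted p of 0.05 and red bars mark medians, which are -2.40 and -2.64 for the 7 genes. The open point at -8.45 is Fosl1, at 0 RPKM in both co-cultured libraries, and its fitted value is no measure of size.

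Compared with keratinocytes alone, activated T cells had lower levels of 12 of 27 early response genes and higher levels of 0, where 3014 of all 13394 genes were lower and 1740 higher (35.5% together). Klf4 (75.7 RPKM on average in keratinocytes and 0.589 RPKM in activated T cells) and Ier3 (445 and 18.3 RPKM) followed the direction of Egr1. Irf4 (1.03 and 56.8 RPKM), Crtam (0.0738 and 14.3 RPKM) and Tnfrsf9 (2.74 and 159 RPKM) followed that of the Nr4a genes. Of the 14 EGR-linked genes 6 were higher in activated T cells and 1, Ndrg1, was lower. Of the 10 NR4A-linked genes 2 were higher and 1, Runx1, was lower. Among 11 MAP kinase feedback genes tested 5 were lower. Dusp4 (1.55 and 8.66 RPKM) was the 1 that was higher, a call that depended on replicate 1 of each group.

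Over the 10 libraries the 7 profiles fell into different shapes. The values that follow are a description over libraries of 2 cell types, and differences of cell type, preparation and depth may enter each of them. Pearson's r of log2(RPKM + 1) was 0.96 between Nr4a2 and Nr4a3, 0.92 between Nr4a1 and Nr4a2, and 0.90 between Nr4a1 and Nr4a3. It was 0.87 between Egr2 and Nr4a1 and 0.83 between Egr2 and Egr3. Egr1 was closest to Egr3 (0.76) and had an r of 0.018 with Nr4a1 and of -0.26 with Nr4a3. Among 8744 genes with a mean of at least 5 RPKM in a group, the non-member genes most like Nr4a3 were Slc25a32 (0.98), Pfkp (0.98) and Ifng (0.98). Those most like Nr4a2 were Ifng (0.96), Il3 (0.96) and Spata5 (0.95), and those most like Nr4a1 were Zc3h8 (0.96), Il3 (0.96) and Sema7a (0.96). For Egr1 they were Qser1 (0.99), Tacc2 (0.99) and Myo5a (0.98), for Egr2 Top1, Eif5b (both 0.97) and Pdxk (0.96), for Egr3 Paip1 (0.96), Car12 and Bhlhe40 (both 0.93), and for Nab2 Jmjd6, Bag5 (both 0.92) and Slc39a10 (0.90).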

How the data were processed

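Poly(A) RNA libraries were prepared by the authors with the NEBNext Ultra II kit, and reads were aligned to GRCm38 with the CLC Genomics Workbench. The annotation release is not given in the sources used here. Per gene, the authors deposited unnormalised counts of exon reads and of intron reads, and RPKM values on a scale other than counts, written with decimal commas.

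Members and gene lists were chosen with earlier results of these data known. The members are all named. Of each list and comparison, up to 4 genes per direction with the largest change were named among those at adjusted p under 0.05 that reached 5 RPKM on average in one of the groups. Other list genes (Maff, Fosl1, Pdcd1, Tox and Rxrb) were named after their values were seen. The 3 most alike genes were ranked by Pearson's r.

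R 4.3.3 was used to test exon counts with the quasi-likelihood F-test of edgeR 4.0.16 after TMM scaling and filterByExpr, with Benjamini-Hochberg adjustment over all genes that passed the filter. All 7 members passed it in every comparison. T cells were fitted with 6 libraries, keratinocytes with 4, and comparisons of both cell types with 10. An exact permutation test of 2 against 2 libraries cannot go below a two-sided p of 0.333 and was not used. As alternatives, DESeq2 1.42.0 and limma 3.58.1 (after adding 1 or 0.1 to RPKM) were run. In edgeR, the TMM factors were replaced by library size or DESeq2 size factors, the filter was dropped or set to 10 counts per library, reads were limited to unique ones, the set of libraries in the fit was changed, a replicate block was added, and each library was left out. The tests were checked on simulated counts. RPKM levels carry no test. Between 12864931 and 18019609 exon reads per library were counted, and the floor of 3 reads covers counting error only. Python 3.11.15, pandas 2.3.3 and matplotlib 3.10.9 were used for tables and plots.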

Additional observations from a re-analysis of the deposited data

Results flagged for a closer look

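Reads on introns of Nr4a2 were flagged since they stand outside the exon counts used above and were higher in both libraries of co-cultured T cells than in both libraries of T cells in keratinocyte medium. The co-cultured T cells had 66 intron reads (10 in library a and 56 in library b), and the T cells in keratinocyte medium had 0 and 0, at 45 and 40 exon reads, where a count of 0 allows up to 3 reads. In library b the 56 intron reads exceeded the 24 exon reads. Activated T cells had 45 and 104 intron reads of Nr4a2 at 341 and 355 exon reads, and the 4 keratinocyte libraries 2 to 16. No annotated gene overlaps Nr4a2 in the GENCODE vM21 annotation. Intron reads of Nr4a3 were 14 (a) and 49 (b) after co-culture and 3 (a) and 22 (b) in keratinocyte medium. The cause was not tested.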

How the results depend on the processing

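In T cells, the number of members called lower in keratinocyte medium against activated T cells was 4 to 7 over the alternatives with all libraries and 1 to 5 with 1 library left out. After co-culture it was 4 to 6 and 2 to 5. The number called in either direction was 3 to 5 and 2 to 4 for activated T cells against keratinocytes alone. For keratinocytes after co-culture it was 0 in all alternatives and 0 to 1 with 1 library left out, and for the other 2 comparisons 0 throughout. With 1 library left out, the lone library of a group is assumed to vary like the others. Over all genes, 776 calls in keratinocyte medium ranged from 24 to 1945, 1222 after co-culture from 266 to 2425, 31 between both from 0 to 141, 0 in keratinocytes from 0 to 1164, 4754 between the cell types from 2394 to 5788, and 79 for the difference from 1 to 308.

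With all libraries in the fit, only Nr4a2 changed its sign. Its log2 fold change in keratinocytes was -0.22 with limma on log2(RPKM + 0.1) and -0.22 with the replicate block. Its difference between the cell types was -0.028 with library size, -0.013 with DESeq2 size factors, -0.010 with DESeq2, and -0.078 and -0.35 with limma. With 1 library left out, co-cultured T cells against keratinocyte medium gave -0.26 to 0.079 for Egr2, -0.51 to 0.045 for Nr4a1, -0.47 to 0.81 for Nr4a2 and -0.39 to 1.01 for Nr4a3. Keratinocytes gave -1.88 to 1.17 for Nr4a2 and -0.12 to 2.47 for Nr4a3, activated T cells against keratinocytes -1.06 to 0.31 for Egr3, and the difference -2.22 to 0.90 for Nr4a2 and -0.32 to 2.31 for Nr4a3. None of these values was called, and the cause was not tested.

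No source says what libraries with the same replicate number share, and 2 pairs are too few to decide it. The deviations of same-numbered libraries correlated with r = 0.56 over 12515 genes between keratinocytes alone and co-cultured keratinocytes. Between keratinocytes alone and activated T cells r was 0.24. With the replicate block 0 members were called in keratinocytes and 4 in activated T cells against keratinocytes alone, as without it. With 2 libraries per group and 8 to 81 exon reads for Nr4a2 and Nr4a3 in keratinocytes, the widest 95% interval, that of Nr4a2 after co-culture, reached from -2.52 to 3.22.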
